A study of Homo sapiens with 6 samples.

Results

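Small nucleolar RNA (snoRNA) host genes were examined in the established cell line KYSE150, derived from a human esophageal squamous cell carcinoma (ESCC). The host genes were taken by name from the deposited gene table: every Ensembl gene whose symbol is SNHG followed by digits, together with GAS5, ZFAS1, EPB41L4A-AS1, DANCR and CCDC26. This gave 33 genes, all annotated as long non-coding RNAs (lncRNAs), of 67140 gene identifiers. A snoRNA host gene is spliced like an mRNA. Its introns release snoRNAs, which guide the 2′-O-methylation (C/D box) or pseudouridylation (H/ACA box) of ribosomal RNA, and the spliced exons are left as a non-coding RNA. Many such RNAs begin with a terminal oligopyrimidine (TOP) tract, a cytosine followed by a run of pyrimidines that also opens ribosomal protein mRNAs, and many are removed by nonsense-mediated decay (NMD) once ribosomes meet their short reading frames.

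The table holds 3 samples of KYSE150 cells with a control hairpin (shCtrl) and 3 with a hairpin against the lncRNA AC007128.1 (shAC007128.1). Per the study's methods, hairpins were delivered by lentivirus and stable lines were selected with puromycin, so all 6 samples share the line, a vector and the selection. One hairpin sequence stood against one control, and the labels do not say that the 3 samples of a group came from separate cultures. The comparison asks what changed in the transcriptome of cells with the hairpin. Poly-A RNA was sequenced, which captures the spliced host RNA and not, in the main, the mature snoRNAs.

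Total counts were 65140326 to 78610457 in shCtrl and 55764405 to 60158244 in shAC007128.1, so the groups did not overlap in depth. At these depths 3 counts correspond to 0.0373 to 0.0546 CPM (counts scaled to library size with TMM factors). AC007128.1 itself was low, with counts of 69, 33 and 53 in shCtrl and 18, 37 and 15 in shAC007128.1. The groups overlapped, the level in shAC007128.1 was 58.7% of that in shCtrl, and the adjusted p was 0.271 (edgeR quasi-likelihood test; two-sided exact permutation p = 0.2, where 0.1 is the smallest possible). By qPCR, a separate measure, the study reports that the hairpin lowered AC007128.1. In the shAC007128.1 group, replicate 3 stood further from replicates 1 and 2 (chi-square per degree of freedom 94.6 and 74.9) than these stood from each other (38.7). Of 10 squamous epithelial markers, 7 were higher and 1 lower in shAC007128.1 at an adjusted p of at most 0.05. KRT5 was at 585 ± 23.2 CPM in shCtrl and 1070 ± 156 CPM (SD, n = 3) in shAC007128.1, DSG3 fell from 203 ± 5.76 to 95.3 ± 9.18 CPM, TP63 was at 126 ± 48.7 and 104 ± 5.91 CPM and did not pass, and SOX2 was low, at 0.434 ± 0.137 and 4.59 ± 0.651 CPM. Of 6 leukocyte markers, PTPRC was at or near 0 in all samples while CD68 was at 63.8 ± 4.47 and 17.5 ± 5.27 CPM. Of 6 fibroblast markers, COL1A2 and COL3A1 were at or near 0 while COL1A1 was at 13.9 ± 0.884 and 17.5 ± 0.983 CPM, LUM rose from 1.07 ± 0.411 to 4.71 ± 0.715 CPM and PDGFRB fell from 0.470 ± 0.146 to 0.154 ± 0.0752 CPM. The part that these markers play in the values below was not tested. With the libraries thinned to equal depth the counts of hosts given below, 17 lower and 3 higher at the adjusted p and 10 and 2 by 2-fold as well, were the same.

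The annotated starts of the hosts bear on the TOP tract, so 30 bases around them are shown for those that carry one and moved, and for hosts that rose. Each begins 10 bases before the annotated start, on the transcribed strand of hg38. The capitals mark a C at the start and the unbroken run of C and T after it, where that run, C included, is at least 5 bases long. A sequence without capitals has no such run. Starts are those of the GENCODE v44 canonical transcript or of RefSeq, as named, and RefSeq's letters equal hg38 in these windows.
SNHG32 (RefSeq start, chr6:31834906-31834935, plus strand): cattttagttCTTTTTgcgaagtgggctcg
SNHG29 (GENCODE start, chr17:16439027-16439056, plus strand): aaggtgtgacCTTTTCattcccgttgttat
ZFAS1 (start the same in both, chr20:49278632-49278661, plus strand): gccattcgttCTTTCgcgtctgcggtgccc
GAS5 (GENCODE start, chr1:173867970-173867999, minus strand): accatactgtCTTTTCgaggtaggagtcga
SNHG19 (RefSeq start, chr16:2155339-2155368, minus strand): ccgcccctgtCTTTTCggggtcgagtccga
SNHG5 (RefSeq start, chr6:85678714-85678743, minus strand): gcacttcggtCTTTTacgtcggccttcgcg
SNHG4 (RefSeq start, chr5:139274091-139274120, plus strand): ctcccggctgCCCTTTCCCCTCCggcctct
SNHG12 (RefSeq start, chr1:28581854-28581883, minus strand): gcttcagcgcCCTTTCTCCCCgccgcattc
SNHG16 (GENCODE start, chr17:76557765-76557794, plus strand): cgttcttttcgaggtcggccgcgtggctgg
DANCR (GENCODE start, chr4:52712491-52712520, plus strand): gcaggtcgcaggcctctttgtcagctggag
SNHG14 (GENCODE start, chr15:25193303-25193332, plus strand): aaggacgtgccctgagttgggtcgatgatg
Such a tract stood at one annotated start or the other in 9 of the 33 hosts. Among the 28 hosts that have both starts the share was 32.1%, beside 5.42% of 19085 genes with both starts and 6.54% of 1146 tested lncRNA genes. Counted over whole lists, in which some genes have a GENCODE start only, the share was 27.3% for the 33 hosts, 72.0% for 25 ribosomal protein genes that host snoRNAs (17 with both starts) and 87.5% for 16 mRNAs of translation factors known as TOP mRNAs (10 with both). The ninth host with a tract, SNHG18, was at 0 counts in all 6 samples. Annotated starts differ between the sources, for example in GAS5, and a start that lies a few bases away hides or makes a tract. Absence of capitals therefore speaks only of the exact start base. The windows of SNHG16 and DANCR hold pyrimidine runs away from that base, and both hosts are counted below as having no tract at a start. For SNHG14 the printed GENCODE start lies far inside the span of the gene. Its RefSeq start, in the window chr15:24823598-24823627, has no tract either.

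The summed level of the host RNAs was lower in cells with the AC007128.1 hairpin. It was 2033, 1948 and 1947 CPM in shCtrl replicates 1 to 3 and 1000, 947 and 897 CPM in shAC007128.1 replicates 1 to 3. The means were 1976 ± 49.0 and 948 ± 51.5 CPM (SD, n = 3), so that 48.0% of the shCtrl sum was left. As a share of all counts the 33 genes took 0.199% to 0.206% in shCtrl and 0.0867% to 0.0972% in shAC007128.1. Of the difference between the sums, SNHG29 made 39.1%, GAS5 16.9% and ZFAS1 14.4%, together 70.3%. Without these 3 genes the sum still went from 901 ± 23.9 to 596 ± 28.5 CPM. In bulk RNA a lower level in every cell and fewer cells with a high level cannot be told apart.

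**Figure D1:**
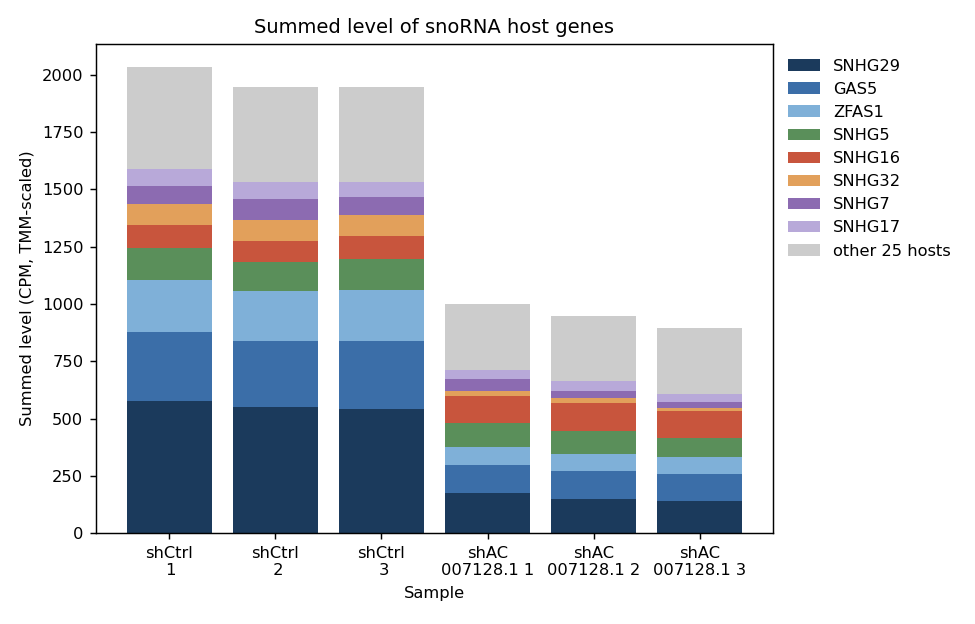
Summed level of the 33 host genes in each of the 6 samples, in TMM-scaled CPM (y axis, from 0), with the 8 hosts named in the key stacked and the other 25 in grey. The 3 shCtrl bars reach 1947 to 2033 CPM and the 3 shAC007128.1 bars 897 to 1000 CPM, and the SNHG29 segment shrinks from 558 to 156 CPM on average.

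Of the 33 hosts, 29 passed the filter on low counts and were tested within a fit over 19254 genes. At an adjusted p of at most 0.05, 17 were lower and 3 higher in shAC007128.1 and 9 did not pass. Over all genes tested 19.8% were lower and 21.0% higher by this rule, and over the 3705 lncRNA genes tested 19.3% and 5.24%. When a 2-fold change (1 on the log2 scale) was required as well, 10 hosts were called lower and 2 higher, where all genes gave 10.1% and 5.57% and lncRNA genes 15.1% and 3.29%. Groups did not overlap for 20 hosts on the lower side and 3 on the higher side (28.2% and 27.0% of all genes, 32.3% and 10.4% of lncRNA genes). The median log2 fold change of the 29 was -0.68, beside -0.02 for all genes and -0.35 for lncRNA genes. The 4 hosts outside the fit were SNHG18 and SNHG28, at 0 counts in every sample, SNHG31, with at most 15 counts in a sample, and CCDC26, with 12, 0 and 4 counts in shCtrl and 5, 0 and 0 in shAC007128.1. Zero counts there allow up to 3 counts per library. The higher calls were the less stable ones. Leaving out any of the 6 samples in turn left 0 or 1 host called higher, and leaving out shCtrl replicate 1, 2 or 3 or shAC007128.1 replicate 2 left 1 rather than 3 higher at the adjusted p. Without the deviating hairpin replicate 3, 17 hosts were lower and 3 higher at the adjusted p, and 8 and 1 by 2-fold as well.

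**Figure D2:**
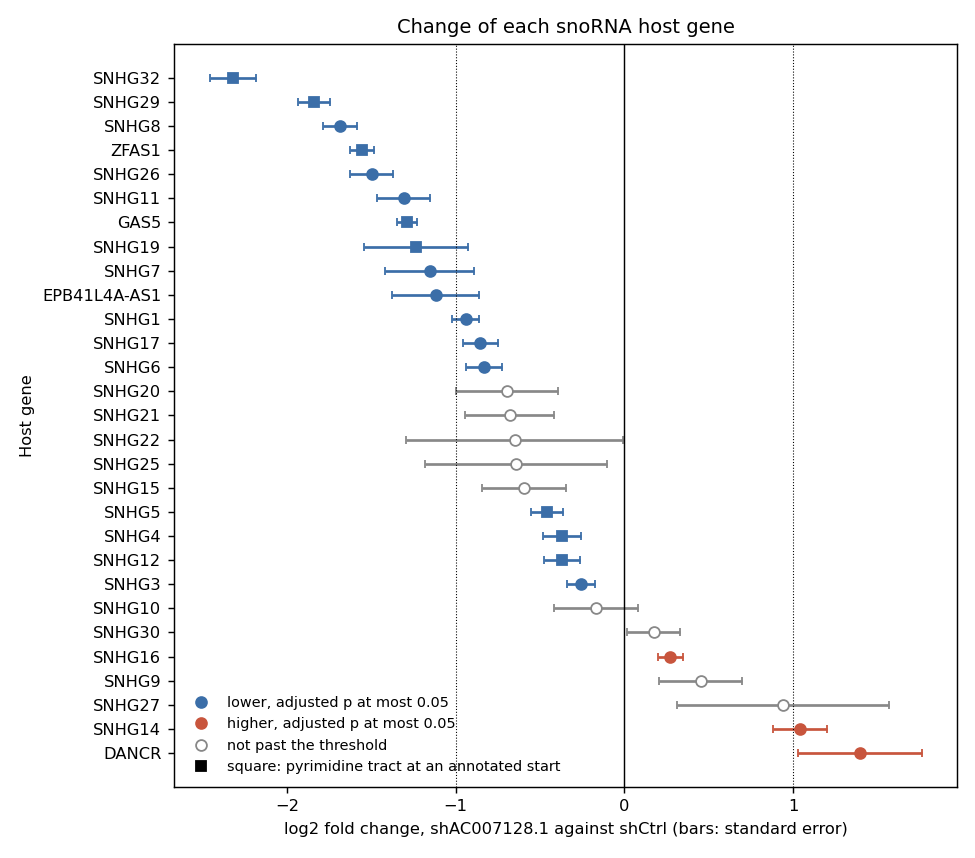
Log2 fold change of the 29 tested hosts (x axis, shAC007128.1 against shCtrl, bars are the standard error of the fit), ordered from the largest fall, with dotted lines at -1 and 1. Blue marks a fall and red a rise past the adjusted p of 0.05, open grey neither, and squares a pyrimidine tract at an annotated start, and all 8 squares are blue and lie between -2.32 and -0.37.

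SNHG32, SNHG29, ZFAS1 and GAS5 had the highest levels per length in shCtrl, and each lost over 50% of its level. SNHG32 (ENSG00000204387, chr6:31834608-31839766), which carries SNORD48 and SNORD52, stood at 91.6, 90.1 and 91.3 CPM in shCtrl and 20.6, 19.5 and 14.6 CPM in shAC007128.1. Its log2 fold change was -2.32 (SE 0.14, adjusted p = 4.61e-05, edgeR), the largest fall among the hosts tested. SNHG29 (ENSG00000175061, chr17:16438767-16480249), host of SNORD49A, SNORD49B and SNORD65, stood at 577, 552 and 544 CPM in shCtrl and 177, 150 and 141 CPM in shAC007128.1. SNHG29 had a log2 fold change of -1.84 (SE 0.10, adjusted p = 3.09e-05), and the lowest control sample lay more than 3 times above the highest sample with the hairpin. Both genes carry the tract printed above, SNHG32 at its RefSeq start and SNHG29 at its GENCODE start.

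ZFAS1 (ENSG00000177410, chr20:49278178-49299600) lies head to head with ZNFX1 and carries the SNORD12 family. Its levels were 226, 219 and 226 CPM in shCtrl and 79.4, 77.4 and 71.6 CPM in shAC007128.1, a log2 fold change of -1.56 (SE 0.07, adjusted p = 2.24e-05). ZNFX1, a helicase gene on the other strand with 249 bases of shared exon, had a log2 fold change of -0.44 (adjusted p = 0.00266). GAS5 (growth arrest specific, ENSG00000234741, chr1:173858559-173868882) is known for accumulating in arrested cells, where the TOP tract holds its translation and decay back, and its span holds 11 snoRNAs by RefSeq. Its levels were 301, 286 and 293 CPM in shCtrl and 121, 120 and 119 CPM in shAC007128.1, a log2 fold change of -1.29 (SE 0.06, adjusted p = 2.30e-05). The 3 samples with the hairpin lay within a span of 2 CPM, the tightest of these 4 genes.

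Per kilobase of merged exons, the level in shCtrl was 62.3 ± 1.92 CPM for SNHG29, 59.5 ± 1.47 for GAS5, 50.5 ± 0.455 for SNHG32, 26.9 ± 0.460 for ZFAS1, 25.2 ± 2.16 for SNHG19 and 21.7 ± 0.688 for SNHG6 (SD, n = 3). The sample values of SNHG29 and GAS5 overlapped on this scale, as did those of ZFAS1 and SNHG19. The scale depends on the annotation. Over the longest transcript in place of merged exons SNHG29 stood at 168 CPM per kilobase and GAS5 at 93.3, with SNHG32 at 86.4 and ZFAS1 at 49.4. In shAC007128.1 the order per kilobase of merged exons was led by GAS5 at 24.3, SNHG16 at 20.4, SNHG29 at 17.4 and SNHG3 at 13.2, an order in which SNHG16, which rose, and SNHG3, which fell little, stood beside SNHG29. At the low end of the tested hosts in shCtrl were SNHG27 at 0.0837, SNHG14 at 0.0907 and SNHG22 at 0.118 CPM per kilobase.

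**Figure D3:**
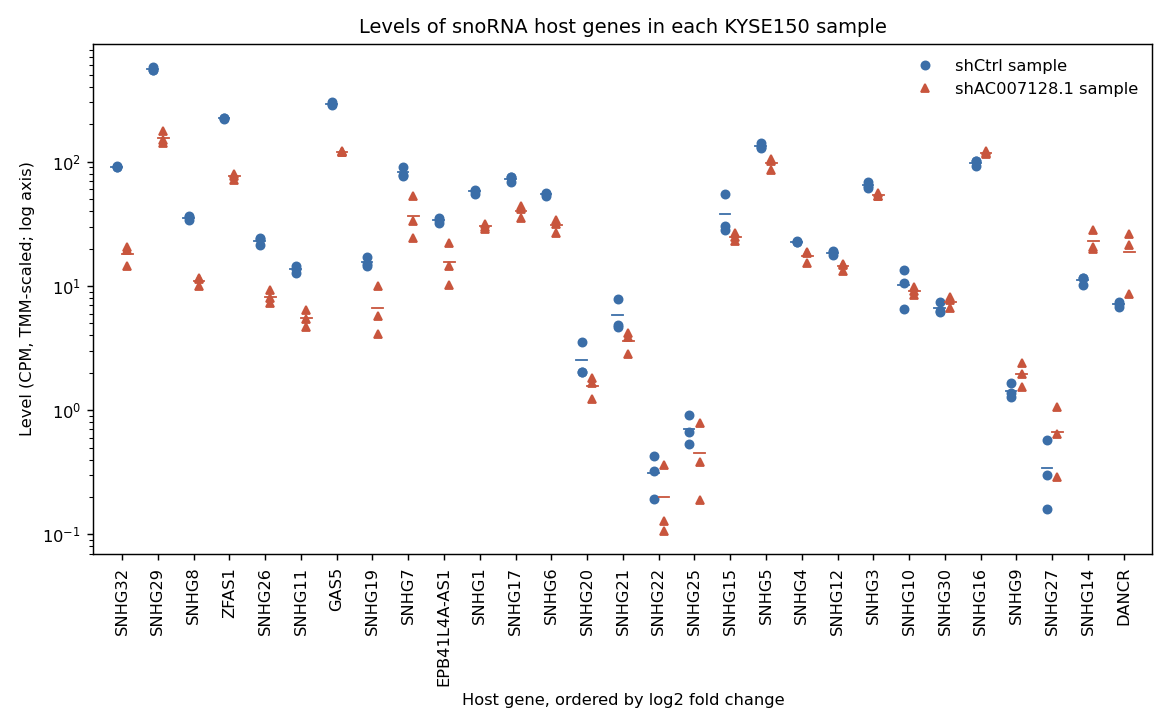
Level of each tested host in each sample (y axis, TMM-scaled CPM on a log axis), blue circles for the 3 shCtrl and red triangles for the 3 shAC007128.1 samples, short lines for group means, ordered by log2 fold change. Hosts at the left separate by 2-fold or more, such as SNHG32 at 91.0 against 18.2 CPM, while DANCR at the far right has 1 hairpin sample close to the controls.

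A second group of hosts lost more than 50% of their level from lower starting values. SNHG8, which carries the H/ACA snoRNA SNORA24, stood at 35.7, 36.5 and 34.0 CPM in shCtrl and 10.0, 11.5 and 11.5 CPM in shAC007128.1 (log2 fold change -1.69, SE 0.10, adjusted p = 4.78e-05, edgeR). SNHG26, host of SNORD93, went from 24.2, 21.4 and 23.9 CPM to 7.33, 8.06 and 9.22 CPM (log2 fold change -1.50, SE 0.13, adjusted p = 0.000163). SNHG11, host of SNORA60 and SNORA71E, went from 13.6, 14.5 and 12.8 CPM to 4.68, 5.42 and 6.45 CPM (log2 fold change -1.31, SE 0.16, adjusted p = 0.000669). In these 3 hosts every hairpin sample lay below 50% of every control sample except one pair in SNHG11, and none of the 3 has a tract at an annotated start.

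SNHG19, SNHG7 and EPB41L4A-AS1 fell past 2-fold with a wide spread among the hairpin samples. SNHG19, a short gene that carries SNORD60, stood at 17.0, 14.9 and 14.6 CPM in shCtrl and 9.97, 5.70 and 4.09 CPM in shAC007128.1 (log2 fold change -1.23, SE 0.31, adjusted p = 0.0157). SNHG7, host of SNORA17A and SNORA17B, stood at 77.3, 91.1 and 77.9 CPM in shCtrl and 52.9, 33.4 and 24.3 CPM in shAC007128.1 (log2 fold change -1.16, SE 0.26, adjusted p = 0.0108). EPB41L4A-AS1, host of SNORA13, stood at 34.9, 34.0 and 32.0 CPM in shCtrl and 14.4, 10.1 and 22.0 CPM in shAC007128.1 (log2 fold change -1.12, SE 0.26, adjusted p = 0.0113). Replicate 3 was the lowest hairpin sample for SNHG19 and SNHG7 and the highest for EPB41L4A-AS1, and the groups stayed apart in all 3. Without that sample the log2 fold changes were -0.99, -0.94 and -1.47, and the first 2 no longer reached 2-fold. SNHG19 also missed the adjusted p without shCtrl replicate 1 (0.0523) or shAC007128.1 replicate 2 (0.0548), and EPB41L4A-AS1 was at -0.88 without shAC007128.1 replicate 2.

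Another 7 hosts were lower at the adjusted p with less than a 2-fold change. SNHG1, which holds a cluster of 9 snoRNAs by RefSeq, went from 58.4, 59.6 and 55.4 CPM to 28.7, 30.1 and 31.5 CPM, a log2 fold change of -0.94 (SE 0.08, adjusted p = 0.000171). SNHG17, host of the SNORA71 family, had a log2 fold change of -0.85 (SE 0.10, adjusted p = 0.000728), and SNHG6, host of SNORD87, of -0.83 (SE 0.11, adjusted p = 0.000898). In all 3 the lowest control sample stood above the highest hairpin sample. SNHG5, host of the SNORD50 pair, went from 141, 128 and 132 CPM to 105, 100.4 and 85.8 CPM (log2 fold change -0.46, SE 0.09, adjusted p = 0.00711). SNHG4, SNHG12 and SNHG3 fell by 0.37, 0.37 and 0.26 on the log2 scale (adjusted p = 0.0340, 0.0302 and 0.0405). These last 3 missed the threshold when any one sample other than hairpin replicate 3 was left out, with adjusted p of 0.0506 to 0.140. SNHG5, SNHG4 and SNHG12 show that a tract at an annotated start also went with small falls.

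By the tract, the 8 tested hosts that have one were all lower at the adjusted p (though SNHG4, SNHG12 and SNHG19 lost it when some single samples were left out, as given above), with a median log2 fold change of -1.26 and a range of -2.32 to -0.37. Of the 21 tested hosts with none, 9 were lower and 3 higher, with a median of -0.65 and a range of -1.69 to 1.39. These counts describe the hosts and were not tested, and the hosts with the tract include the 4 with the highest level per length. They also depend on the exact start base and on the source. Of the 8, 4 carry the tract at the GENCODE start and 6 at the RefSeq start, and only ZFAS1 and SNHG12 at both. SNHG16, which rose, has a pyrimidine run opening with C between its RefSeq and GENCODE starts, and a start there would count as a tract. SNHG6, SNHG9, SNHG15 and SNHG25, counted as having none, have no RefSeq start and were searched at the GENCODE start only.

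DANCR, SNHG14 and SNHG16 were higher in cells with the hairpin. DANCR (ENSG00000226950, chr4:52712325-52723623), a lncRNA known for keeping epidermal progenitors from differentiating, had counts of 539, 548 and 484 in shCtrl and 1191, 1446 and 497 in shAC007128.1. Scaled to CPM this was 7.36, 6.81 and 7.13 against 21.2, 26.3 and 8.55, so hairpin replicate 3 stood near the controls and the other two about 3 to 4 times above them. The log2 fold change was 1.39 (SE 0.37, adjusted p = 0.0201). Without that replicate it was 1.73 (adjusted p = 0.000238), and without any one of the other 5 samples it was 1.07 to 1.42 with an adjusted p of 0.0554 to 0.0665, past the threshold in none of these.

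SNHG14 (ENSG00000224078, chr15:24978583-25420336) is the long transcript of the imprinted Prader-Willi and Angelman region, which carries 84 snoRNAs by RefSeq, chiefly the SNORD115 and SNORD116 clusters, and runs antisense into UBE3A. Its levels were 11.6, 11.6 and 10.2 CPM in shCtrl and 20.6, 19.98 and 28.0 CPM in shAC007128.1 (log2 fold change 1.04, SE 0.16, adjusted p = 0.00191). Without hairpin replicate 3 the log2 fold change was 0.86, and without shCtrl replicate 3 it was 0.98, each past the adjusted p and under 2-fold. UBE3A, the ubiquitin ligase gene on the other strand, shares 1822 exon bases with SNHG14 and stood well above it. UBE3A was at 105 CPM in shCtrl and 137 CPM in shAC007128.1 (log2 fold change 0.38, adjusted p = 0.0422, edgeR). The share of UBE3A reads in the SNHG14 counts was not tested. SNHG16, host of the SNORD1 family, stood at 101, 91.6 and 101 CPM in shCtrl and 116, 121 and 117 CPM in shAC007128.1 (log2 fold change 0.27, SE 0.07, adjusted p = 0.0207). Its groups did not overlap, and the adjusted p was 0.0541 to 0.101 without any one of the shCtrl samples or hairpin replicate 2.

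The 9 tested hosts that did not pass split in direction. SNHG20, SNHG21 and SNHG15 had log2 fold changes of -0.69, -0.68 and -0.59 (adjusted p = 0.107, 0.0754 and 0.0961) and groups that did not overlap. Each moved with 1 control sample, to -0.37 for SNHG20 without shCtrl replicate 3, -0.40 for SNHG21 without shCtrl replicate 2 and -0.23 for SNHG15 without shCtrl replicate 1. In SNHG15 the control samples themselves ranged from 28.1 to 54.6 CPM. SNHG22, SNHG25 and SNHG10 had log2 fold changes of -0.65, -0.64 and -0.17, and SNHG30, SNHG9 and SNHG27 of 0.17, 0.45 and 0.94, with overlapping groups. SNHG22, SNHG25 and SNHG27 were at most 62 counts in any sample, and with standard errors of 0.54 to 0.65 a change of 2-fold is under 2 standard errors there.

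The host RNA and the snoRNAs inside its span can be told apart only in part here. Many of these snoRNAs are also annotated as exon of the host. RefSeq places 151 snoRNAs and small Cajal body RNAs inside 31 of the 33 hosts, 67 of them outside SNHG14. It places none in CCDC26 and SNHG27, which are called hosts here by name, and GENCODE v44 also places none in CCDC26. GENCODE v44 places 145 genes of these types inside the hosts, 84 of them in SNHG14 and none in GAS5, where RefSeq places 11. The GENCODE count keeps to the strand of the host, while the RefSeq count goes by span alone. Of the 145, 67 were at 0 in all samples and 18 passed the filter. Some of the rest, such as SNORD49A, SNORD49B and SNORD65 in SNHG29, had exactly 1 count in every sample despite unlike depths. Such values were not read as levels. At the adjusted p 1 of the 18 was lower and 1 higher. SNORA24 in SNHG8 had counts of 111, 144 and 129 in shCtrl and 48, 27 and 19 in shAC007128.1 (log2 fold change -1.64, SE 0.37, adjusted p = 0.0109). All 131 of its bases are also annotated as exon of SNHG8, whose fall was of about the same size. SNORA78 in SNHG9 had counts of 31, 21 and 21 in shCtrl and 33, 35 and 76 in shAC007128.1 (log2 fold change 1.35, SE 0.44, adjusted p = 0.0456), with hairpin replicate 3 the highest of the 6. All 127 of its bases are also annotated as exon of SNHG9, which had a log2 fold change of 0.45 and did not pass. SNORD93 in SNHG26, which shares no exon base with its host, had counts of 15, 23 and 18 against 4, 6 and 5 (log2 fold change -1.49, adjusted p = 0.0679).

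Genes that overlap the hosts on the opposite strand limit some of these values, because whether counting used strand is not stated in the sources used here. Reads of such a pair cannot then be told apart. The share of exon bases that also belong to other genes was taken over both strands, and snoRNAs inside the hosts count in it. It was 62.4% in SNHG6, 54.3% in EPB41L4A-AS1, 43.1% in ZFAS1, 39.6% in SNHG8 and 35.8% in SNHG7. In SNHG29 it was 8.003% and in GAS5 7.75%. The partners PRSS12 of SNHG8, DIPK1B of SNHG7, MCMDC2 of SNHG6 and EPB41L4A of EPB41L4A-AS1 were all under 5 CPM in both groups, far below their hosts. LRRC75A, opposite SNHG29, went from 6.80 to 2.22 CPM (log2 fold change -1.61, adjusted p = 0.00264), in the direction of its host. UBE3A, opposite SNHG14 and above it in level, went from 105 to 137 CPM, also in the direction of its host. SNHG16 shares 31.1% of its exon bases, mostly with the protein-coding gene ENSG00000284526, which fell from 33.9 to 11.6 CPM (log2 fold change -1.54) while SNHG16 rose. Sharing on the same strand remains even where counting uses strand. SNHG21 shares 72.9% of its exon bases with ENSG00000252690, at 8.12 CPM in shCtrl and 6.11 in shAC007128.1. SNHG20 shares 460 bases with SEC14L1 (117 and 136 CPM). SNHG4 shares 626 with MATR3 (53.7 and 62.1 CPM), and SNHG3 shares 242 with RCC1 (79.7 and 95.0 CPM). The part of such genes in the host values was not tested.

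Protein-coding snoRNA hosts had medians nearer to 0 than the lncRNA hosts. Over all 13591 protein-coding genes tested, 20.9% were lower and 27.3% higher at the adjusted p, and 8.82% and 6.45% by 2-fold as well. Of 25 ribosomal protein genes that host snoRNAs, 9 were lower and 1, RPSA, was higher at the adjusted p, none reached 2-fold, and the median log2 fold change was -0.15. RPL13, RPS12 and RPL3, which encode ribosomal proteins of the large or small subunit, fell by 0.48, 0.31 and 0.65 on the log2 scale (adjusted p = 0.00206, 0.00526 and 0.00679). Leaving out shCtrl replicate 1, 2 or 3 or shAC007128.1 replicate 2 left 4 or 5 of the 9 lower. Of 24 other protein-coding hosts, 12 were higher and 7 lower with a median of 0.25, and 7 were higher without shCtrl replicate 3. HSPA8, the constitutive Hsc70 chaperone and host of a SNORD14 cluster, rose most, from 184, 191 and 181 CPM to 1406, 1393 and 1421 CPM (log2 fold change 2.92, SE 0.06, adjusted p = 1.05e-06). HSPA9, the mitochondrial Hsp70, fell (log2 fold change -0.82), TCP1, a chaperonin subunit, rose (0.76), and IPO7, an import receptor named after its values were seen, was the 1 of 24 called lower (-1.07).

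Among 16 translation factors and related TOP mRNAs, 3 were higher and 5 lower, none reached 2-fold, and the median log2 fold change was -0.05. RACK1, a ribosome-bound scaffold and itself a snoRNA host, fell by 0.62 and EEF2, the elongation factor of translocation, by 0.48 on the log2 scale, while NPM1, a nucleolar chaperone, rose by 0.51 (adjusted p = 0.000179, 0.00208 and 0.000419). Without shCtrl replicate 2, 1 was higher and 2 lower, and without shCtrl replicate 3, 1 and 3. Without shCtrl replicate 1 or hairpin replicate 2, 2 were higher and 3 lower. Of 12 regulators of TOP RNA 5 were higher and 3 lower. LARP4, a poly(A)-binding La-related protein, and RPTOR, the raptor subunit of mTORC1, rose by 0.84 and 0.68 on the log2 scale, LARP1B, a relative of the TOP-binding LARP1, fell by 0.71, and LARP1 itself had a log2 fold change of -0.18 and did not pass. The number lower ranged from 1, without shCtrl replicate 1, to 5, without hairpin replicate 3.

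Of 22 NMD factors, 7 were higher and 1, CASC3, lower at the adjusted p, with a median log2 fold change of 0.24 and none called at 2-fold (2 lower without shCtrl replicate 3). PNRC2, a decapping adaptor, rose from 5.54 ± 0.495 to 10.9 ± 0.276 CPM (log2 fold change 0.98, adjusted p = 0.00111), and SMG5, which recruits decay enzymes to UPF1, and EIF4A3, the helicase core of the exon junction complex, each rose by 0.47 on the log2 scale (adjusted p = 0.00113 and 0.00114). UPF1, the central helicase of the pathway, had a log2 fold change of 0.23 and did not pass (adjusted p = 0.0848; named after its values were seen). Of 17 mRNAs known as NMD substrates, 8 were lower, 5 of them by 2-fold, and 4 higher, with a median of -0.27. SLC7A11, the cystine importer, fell from 226 ± 9.32 to 31.0 ± 4.81 CPM (log2 fold change -2.87, adjusted p = 1.73e-05). DDIT3 (CHOP), a stress-response factor, had a log2 fold change of -2.82 and CARS1, the cysteinyl-tRNA synthetase, of -1.39, and the other two called lower were GADD45A and ATF3 (named after their values were seen; -1.76 and -1.35). All 5 are also known to be induced in the amino acid and unfolded protein stress response, and ATF4, a factor of that response, had a log2 fold change of -0.67. The 4 higher ones were SMG5 and SMG6, which stand in both NMD lists, and the splicing factors SRSF2 and SRSF3, at 0.37 to 0.47.

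Of 22 snoRNP proteins and assembly factors, 5 were higher and 1 lower at the adjusted p, with a median log2 fold change of 0.04. DKC1, dyskerin, the pseudouridine synthase of H/ACA particles and itself a host of snoRNAs, stood at 104, 104 and 104 CPM in shCtrl and 63.2, 55.5 and 45.7 CPM in shAC007128.1 (log2 fold change -0.92, SE 0.12, adjusted p = 0.000967). COIL, the Cajal body protein coilin, and NAF1, an assembly factor of H/ACA particles, rose by 0.60 and 0.56 on the log2 scale (adjusted p = 0.00443 and 0.00807). FBL, the methyltransferase of C/D particles, had a log2 fold change of -0.03 and NOP58 of -0.13, and neither passed (both named after their values were seen). Leaving out shCtrl replicate 2 or 3 or hairpin replicate 2 left 3 higher, leaving out hairpin replicate 1 gave 3 lower, and leaving out hairpin replicate 3 gave 8 higher and 3 lower.

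**Figure D4:**
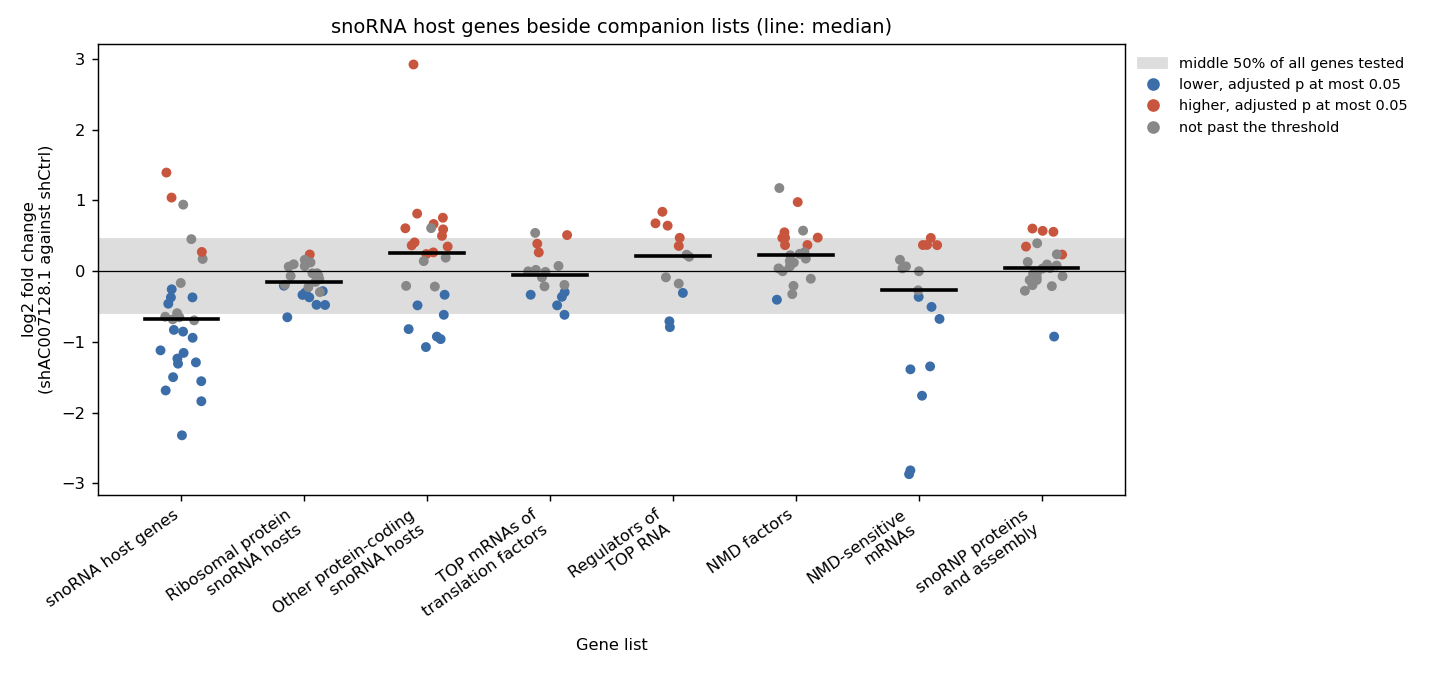
Log2 fold change (y axis, shAC007128.1 against shCtrl) of each tested gene in the lncRNA host list and the 7 companion lists (x axis), with black lines for medians and a grey band for the middle 50% of all tested genes. The median of the lncRNA hosts is -0.68, while the 7 other medians lie between -0.27 and 0.25, and HSPA8 stands alone at 2.92.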

How the data were processed

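For each of 6 samples the authors deposited estimated counts by Ensembl gene, not normalized and given as whole numbers. Multiples of 4 are over-represented among low values (1355 genes at 4 counts but 761 at 3 and 993 at 5 in shCtrl replicate 1). Per the study's methods, poly-A TruSeq paired-end reads were filtered and mapped to hg38 with TopHat, and FPKM values came from Cufflinks. The submitters' processing notes list CASAVA 1.8 and TopHat2 2.0.6, a TopHat version other than the one in the methods, and both GRCh38 and the mouse build mm10. The counting program, annotation release and use of strand are not given in the sources used here. Samples were grouped by their titles, since the treatment text names shAC007128.1 for all 6, and 0 sample columns were left unmapped. Because separate cultures are not stated, p-values measure the spread between these samples, which may be technical. Replicates of a group differed beyond sampling noise and were each counted.

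Symbols, positions and exons came from GENCODE v44 (60357 of 67140 identifiers found), and further starts and snoRNAs from RefSeq (GRCh38). Counts were filtered with filterByExpr (19254 kept), scaled by TMM (factors 0.967 to 1.042) and tested with edgeR 4.0.16 in R 4.3.3 (glmQLFit and glmQLFTest), with Benjamini-Hochberg adjustment over all genes tested. Each standard error is the size of the fold change (log2) over the square root of F. Calls needed an adjusted p no higher than 0.05 together with a change of 1 or more, up or down, on the log2 scale. The level of 3 counts covers counting error only. Starts were searched for a C followed by at least 4 C or T on the transcribed strand only. The fit was tested on simulated data. After a first run with smaller planted changes missed the recovery limit, the changes were made larger and the limit was reset. With the larger changes edgeR recovered 131 of 200 changed genes (65.5%) and called 11 unchanged genes. Not only small changes but also changes of the larger planted size can therefore go uncalled. Alternatives were DESeq2 1.42.0, limma-voom (limma 3.58.1), size factors of DESeq2, scaling by library size alone, testing unfiltered genes, a minimum of 10 counts per sample, counts divided by 4, thinned libraries, the replicate block, each sample left out, and levels over the longest transcript. All hosts, AC007128.1, the 3 genes with the smallest p in each companion list, and overlapping genes were named by rule. Others are marked or, for RPSA, LARP1, CASC3, ATF4, SMG6, SRSF2, SRSF3 and the marker genes, were also named after their values were seen. The hosts and lists were chosen with earlier results of these data known. Companion lists share some genes. Some genes are not reported here.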

Additional observations from a re-analysis of the deposited data

How the results depend on the processing

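Over 15 alternatives, the log2 fold changes of the hosts kept direction and side of the threshold in 397 of 432 values, lost the adjusted p in 32, gained it in 2 (SNHG15 and SNHG21 under DESeq2) and changed sign in 1. That one was SNHG10, not past the adjusted p in any case, which ran from -0.41 to 0.0743 as single samples were left out and was positive without shCtrl replicate 1. The number of hosts called higher was 1 with library size only and 1 with no filter, and 0 to 1 with single samples left out. Hosts higher at the adjusted p then numbered 1 to 3, lower ones 13 to 17, and hosts called lower 8 to 10. The median of all genes was -0.10 with library size only and -0.15 with no filter. Same-numbered samples did not deviate together (correlations 0.03, -0.03 and -0.03), so no pairing by number was seen. With 3 samples per group this cannot exclude one. With the replicate block, which lost SNHG3, SNHG4, SNHG12 and SNHG16, 2 hosts were higher and 14 lower at the adjusted p, and 10 lower and 2 higher by 2-fold as well. Among the companion lists, no filter gave 0 ribosomal protein hosts and 1 TOP mRNA higher, and 2 snoRNP genes were lower with library size only, at least 10 counts or counts divided by 4. Low counts limit SNHG22, SNHG25 and SNHG27 above all, and the untested SNHG18, SNHG28, SNHG31 and CCDC26.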
